A study of Mus musculus with 6 samples.

Results

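The genes described here are 32 members of the hypoxia-inducible factor (HIF) pathway, taken by gene symbol from a list of pathway genes and measured by RNA sequencing in 6 mouse liver tumours. Of these, 7 regulate the pathway: the HIF alpha subunits Hif1a, Epas1 and Hif3a, the ubiquitin ligase receptor Vhl and the oxygen-sensing prolyl hydroxylases Egln1, Egln2 and Egln3. The other 25 are genes that low oxygen induces. All 32 were among the 55536 genes of the count table, and all 32 were among the 17423 that passed the filter on low counts, so the filter removed no member.

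The tumours grew in male C3H mice, 6 to 8 weeks old, after 1000000 cells of HCA-1, a mouse hepatocellular carcinoma line, had been placed under the liver capsule. The Control group is 3 tumours labelled untreated (replicates 3, 4 and 5). The TSDP group is 3 tumours (replicates 1, 2 and 5) of mice that received, in 6 injections into a vein between day 10 and day 23, a nanoparticle carrying both DNIC, a dinitrosyl iron complex that releases nitric oxide, and sorafenib, a kinase inhibitor used against liver cancer. All tumours were taken on day 24. The labels name no empty-particle, DNIC-only or sorafenib-only group, so the parts of the particle cannot be told apart, and they do not say whether Control mice were injected. All 6 tumours come from 1 cell line, and the samples are known as separate only from their titles, so each p-value weighs a difference only against the scatter of these samples, which may be partly technical.

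Libraries held 32130808 to 38953397 counts. Keratins of the tumour epithelium, Krt8 and Krt18, were counted in every library at 429 CPM or more (CPM is the count scaled to the TMM-adjusted size of its library), whereas the fetal liver marker Afp stayed at 9.15 CPM or less. Normal liver tissue differed widely between libraries: 10 hepatocyte markers summed to 93.7, 18510 and 3503 CPM in Control 3, 4 and 5 and to 28740, 54550 and 18120 CPM in TSDP 1, 2 and 5. All 10 were detected in every library. Summed endothelial markers (8 genes) ran from 197.8 to 264 CPM in Control, and in TSDP from 292.5 to 518 CPM.

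HIF is a pair of an oxygen-labile alpha subunit and a stable partner, ARNT. In oxygen the EGLN enzymes hydroxylate prolines of the alpha subunit, VHL recognises them and the subunit is destroyed; without oxygen it accumulates, enters the nucleus and switches on genes of glucose uptake, glycolysis, acid handling, mitophagy, collagen processing and vessel growth. Because this control acts on the protein, the mRNA of an alpha subunit does not report its activity, while the mRNA of the target genes follows it more closely. Solid liver tumours are often poorly oxygenated, and sorafenib acts on the kinases of vessel growth.

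Most hypoxia-induced members stood lower in TSDP tumours, while the regulators showed no shared direction and no single member passed the test over all genes. Of the 25 hypoxia-induced members 23 had a negative log2 fold change (TSDP over Control), against 52.7% of all genes tested. Their median was -0.52, and that of all genes -0.02. Under every other scaling tried 23 of the 25 were negative too. For 13 members every TSDP library lay below every Control library, a pattern shown by 8.76% of all genes, and for 2 members, Ak4 and Insig2, every TSDP library lay above, a pattern shown by 13% of all genes. With upper-quartile factors in place of TMM these shares of all genes turned to 13.8% and 9.9%, and the members to 16 and 2. In bulk tumours, fewer cells of a type and less RNA per cell cannot be told apart.

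By edgeR's quasi-likelihood test with Benjamini-Hochberg adjustment, 0 of the 32 members passed an adjusted p of 0.05 in either direction, as did 0% of all genes. At an unadjusted p under 0.05 there were 9 members lower, against 4.75% of all genes, and 3 higher, against 8.6%. DESeq2 called 3 members, Ndrg1, Kdm3a and Kdm4b, all lower, against 0.397% of its genes called lower and 2.98% called higher. limma-voom called 0 members and 0% of genes; at an unadjusted p under 0.05 it held 12 members lower and 2 higher, against 15.2% of all genes in either direction. Much of the size of the difference came from 1 tumour. Without TSDP 1 the median of the hypoxia-induced members was -0.32 and that of all 32 members -0.22 in place of -0.44. There 5 members in place of 9 were lower at an unadjusted p under 0.05 by edgeR. Over all genes 1343 of 17945 were under it in either direction, in place of 2326 of 17423. The member count was 5 without Control 3 and 4 without Control 5 as well, where 1655 and 1476 of all genes were under it. It ran from 4 to 12 with 1 library left out, where fewer libraries also enter the fit.

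**Figure D1:**
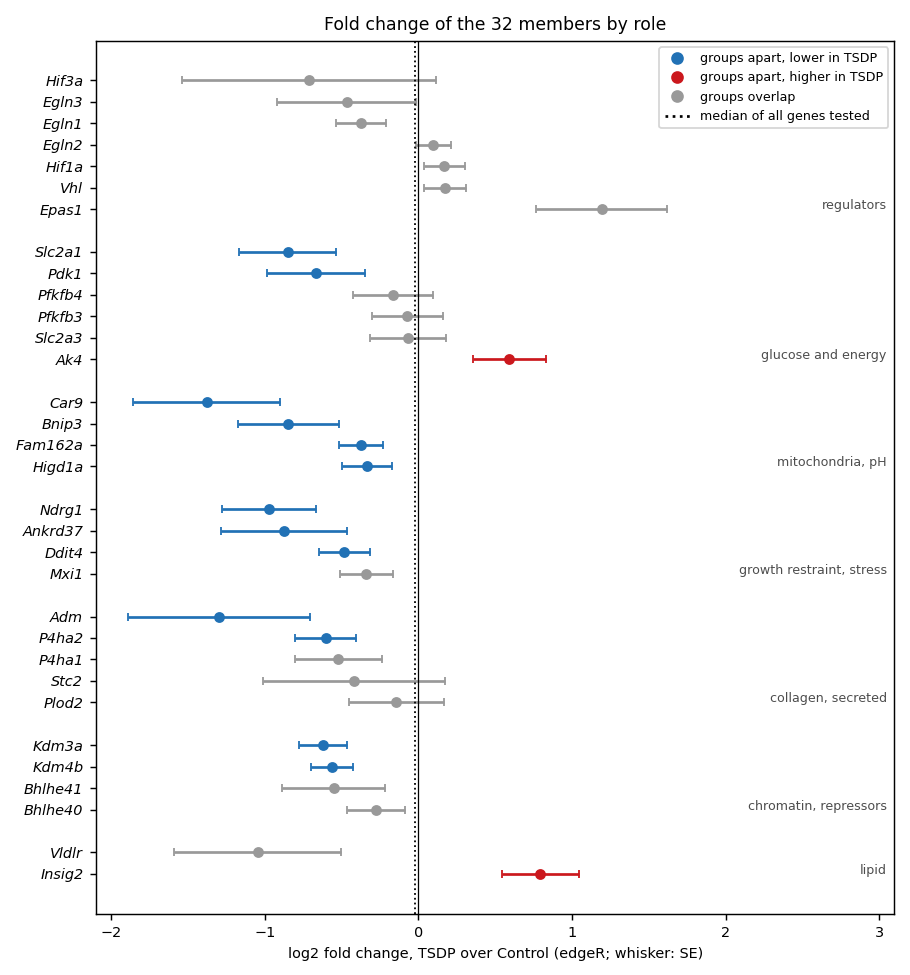
Log2 fold change (TSDP over Control, horizontal axis) of the 32 members, grouped by role, with the standard error from edgeR as whiskers. Blue marks the 13 members whose TSDP libraries all lay below Control, red the 2 whose TSDP libraries all lay above, grey those that overlapped; the dotted line is the median of all genes, -0.02.

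Of the 7 regulators 4 had a positive and 3 a negative log2 fold change, none passed the test, and the groups overlapped in all 7. Hif1a mRNA (ENSMUSG00000021109) averaged 153 CPM in Control tumours against 172 CPM in TSDP tumours, while Epas1 averaged 229% of its Control level. Hif1a, which encodes the alpha subunit of HIF-1, was counted at 175, 132 and 153 CPM in Control 3, 4 and 5, respectively, against 172, 176 and 169 CPM in TSDP 1, 2 and 5. The TSDP values lay within or next to the Control range. Its log2 fold change was 0.17 ± 0.13 (SE, edgeR adjusted p = 0.594). Epas1 (ENSMUSG00000024140), which encodes HIF-2 alpha, a subunit prominent in endothelium, stood at 33.5, 64.8 and 35.6 CPM in Control tumours against 83.4, 161 and 61.1 CPM in TSDP tumours. TSDP 2 held the most and TSDP 5 stood just below Control 4, so the groups overlapped. The log2 fold change of Epas1 was 1.19 ± 0.43 (SE, edgeR adjusted p = 0.351), or 0.62 ± 0.47 with the hepatocyte marker score (the mean log2 CPM of the 10 markers) as a covariate. That of Hif1a rose with this covariate, to 0.38 ± 0.15 (SE, edgeR adjusted p = 0.885).

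The balance between these alpha subunits can be read within a library, per kilobase of exon. Epas1 over Hif1a was 0.202, 0.518 and 0.245 in Control and 0.513, 0.966 and 0.38 in TSDP, means of 0.322 ± 0.171 and 0.620 ± 0.307 (SD, n = 3 each, exact two-sided permutation p = 0.3 on the log2 ratio, where 0.1 is the smallest that 3 against 3 allow). Hif1a was the more abundant in all 6 libraries. The libraries with the most Epas1, TSDP 2 and TSDP 1, also held the most summed hepatocyte and endothelial marker RNA. The endothelial markers Kdr and Eng stood at 90.1 and 141 CPM in TSDP 2, against at most 38.9 and 53.3 CPM in Control. Tek, Tie1 and Emcn, like Kdr and Eng, lay wholly above Control, while Pecam1, Cdh5 and Vwf overlapped between the groups. The part of hepatocyte and endothelial RNA in the Epas1 value was not tested. Hif3a (ENSMUSG00000004328), whose product can restrain the other subunits, was near the limit of counting, with 9, 32 and 8 reads in Control and 7, 20 and 4 in TSDP, or 0.976 CPM at most. Its log2 fold change of -0.71 rested on Control 4 and was 0.30 without that library.

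Vhl (ENSMUSG00000033933) averaged 113% of its Control level in TSDP, at 15.3, 18.8 and 16.7 CPM in Control tumours against 18.3, 21.2 and 17.8 CPM in TSDP tumours. The 3 prolyl hydroxylases differed from each other. Egln2 (ENSMUSG00000058709), which low oxygen does not induce, stood at 25, 30.0 and 27.1 CPM in Control tumours against 30.9, 29.1 and 27.8 CPM in TSDP tumours, overlapping throughout. Egln1 (ENSMUSG00000031987), the main oxygen sensor and itself a HIF target, stood at 98.5, 83.6 and 99.4 CPM in Control tumours against 57.8, 75.3 and 84.3 CPM in TSDP tumours. Only TSDP 5, by a small margin over Control 4, kept its groups from separating (log2 fold change -0.37 ± 0.17, SE, edgeR adjusted p = 0.394). Egln3 (ENSMUSG00000035105), the hydroxylase with the strongest hypoxic induction in many cells, was at 87.2, 63.5 and 45.3 CPM in Control tumours against 21.0, 50.7 and 69.9 CPM in TSDP tumours. Its groups overlapped widely, with TSDP 1 lowest of the 6, and its log2 fold change moved from -0.47 to -0.09 without TSDP 1.

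**Figure D2:**
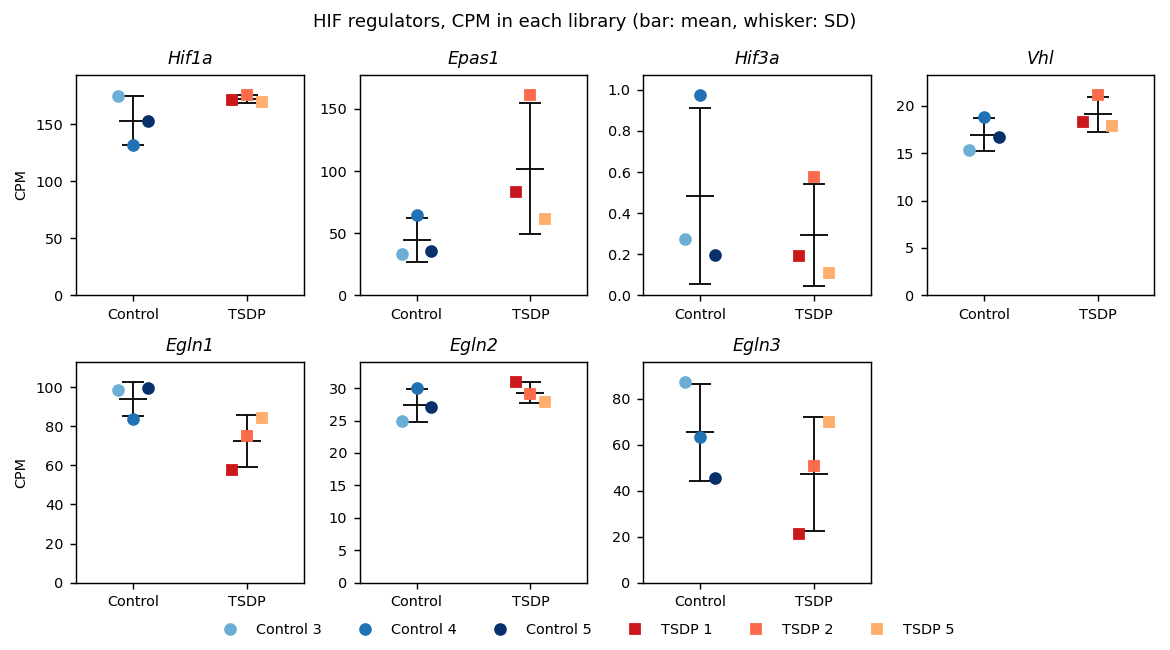
CPM (vertical axis, from 0) of the 7 regulators in each library, with the mean (bar) and SD (whisker) of the 3 Control and 3 TSDP libraries. The groups overlap in every panel, Epas1 is highest in TSDP 2 at 161 CPM, and Egln1 and Egln3 are lowest in TSDP 1.

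HIF binds DNA at a short core, ACGTG or GCGTG, the hypoxia response element. Promoters were available for 26 of the 32 members, and these cores were searched on both strands in the 250 bases before each RefSeq start (GRCm38.p6), where an ACGTG can overlap one on the other strand. Counting a gene once if any of its starts has a core, 19 of the 20 hypoxia-induced members with a promoter held at least 1, against 57.6% of the tested genes with a promoter. That rule favours genes with more starts. By single promoters, 25 of 32 (78.1%) held a core, against 52.0% of the promoters of tested genes. ACGTG stood in 14 of 32 (43.8%) and GCGTG in 20 of 32 (62.5%), against 20.3% and 41.1% of the promoters of tested genes and 16.6% and 28.2% of all 32851 promoters of the table. Vldlr was the 1 gene of the 20 without a core in this window. The members without a promoter in the table are Epas1, Slc2a3, Ndrg1, Plod2, Kdm4b and Bhlhe40. A match shows only that the letters are there. The promoters of the 4 hypoxia-induced members with the smallest p that hold a match are printed, 5′ to 3′ on the gene's strand, since 3 of them belong to genes whose TSDP libraries all lay below Control and 1, Insig2, to a gene with the opposite order. Capitals mark the cores, on either strand.
Kdm3a, chr6:71632918-71633167, minus strand: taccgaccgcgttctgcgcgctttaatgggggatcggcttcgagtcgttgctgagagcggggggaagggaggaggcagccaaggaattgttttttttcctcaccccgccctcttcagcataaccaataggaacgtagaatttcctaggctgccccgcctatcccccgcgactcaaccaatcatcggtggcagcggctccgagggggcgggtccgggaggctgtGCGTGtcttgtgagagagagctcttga
Insig2, chr1:121328025-121328274, minus strand: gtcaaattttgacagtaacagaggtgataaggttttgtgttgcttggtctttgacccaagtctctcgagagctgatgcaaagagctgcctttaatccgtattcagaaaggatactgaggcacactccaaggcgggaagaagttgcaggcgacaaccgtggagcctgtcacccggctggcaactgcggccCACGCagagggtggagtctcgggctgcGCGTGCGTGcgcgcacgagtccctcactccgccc
P4ha2, chr11:54100674-54100923, plus strand: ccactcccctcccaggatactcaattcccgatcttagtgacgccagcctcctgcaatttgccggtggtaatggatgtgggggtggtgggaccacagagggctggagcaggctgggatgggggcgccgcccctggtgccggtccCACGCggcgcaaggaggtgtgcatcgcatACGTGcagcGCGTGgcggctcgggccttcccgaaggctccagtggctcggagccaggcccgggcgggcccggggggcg
Ddit4, chr10:59951771-59952020, minus strand: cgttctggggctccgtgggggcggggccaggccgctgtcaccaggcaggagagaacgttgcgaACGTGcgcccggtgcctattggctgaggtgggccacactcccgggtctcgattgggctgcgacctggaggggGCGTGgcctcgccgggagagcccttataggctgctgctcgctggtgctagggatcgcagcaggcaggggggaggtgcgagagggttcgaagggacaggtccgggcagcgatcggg
Kdm3a has 1 core, 27 bases before its start, in 1 of its 3 starts. The start of Insig2 shown has 3 cores, all GCGTG, of which 2 overlap by 1 base. P4ha2 has 3 and Ddit4 2, each with 1 ACGTG.

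Of 6 genes of glucose uptake and energy, 2 lay wholly below Control and 1 wholly above, against 8.76% and 13% of all genes. Slc2a1 (ENSMUSG00000028645), the glucose transporter GLUT1, was counted at 309, 259.8 and 358 CPM in Control tumours against 109.9, 152 and 252 CPM in TSDP tumours, where TSDP 5 came close to Control 4. Its mean in TSDP was 55.4% of that in Control (log2 fold change -0.85 ± 0.32, SE, edgeR adjusted p = 0.359). Pdk1 (ENSMUSG00000006494), the kinase that keeps pyruvate out of mitochondria, stood between 95.8 and 126 CPM in Control tumours against 38.1, 75.0 and 92.4 CPM in TSDP tumours. For both genes TSDP 1 was lowest and TSDP 5 nearest to Control. The second glucose transporter Slc2a3 and the enzymes Pfkfb3 and Pfkfb4, which make a fructose bisphosphate that speeds glycolysis, had log2 fold changes of -0.07, -0.07 and -0.17 with overlapping groups. Ak4 (ENSMUSG00000028527), a mitochondrial adenylate kinase, went the other way, at 25.1, 27.5 and 28.2 CPM in Control tumours against 31.9, 56.4 and 33.4 CPM in TSDP tumours (log2 fold change 0.59 ± 0.24, SE, edgeR adjusted p = 0.371).

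Genes of acid handling and mitochondria had all 4 members wholly below Control, against 8.76% of all genes. Car9 (ENSMUSG00000028463), the cell-surface carbonic anhydrase long used as a hypoxia marker, had the lowest fold change of the 32 members. It was counted at 17.8, 18.1 and 13.0 CPM in Control tumours against 2.32, 7.67 and 8.80 CPM in TSDP tumours, so that its mean in TSDP was 38.4% of that in Control. TSDP 1 held only 85 reads of it, against at least 267 in any other library. The log2 fold change was -1.38 ± 0.48 (SE, edgeR adjusted p = 0.342), and -0.96 ± 0.23 without TSDP 1. Bnip3 (ENSMUSG00000078566), a mitophagy receptor of the outer mitochondrial membrane, stood at 174, 145 and 149.8 CPM in Control tumours against 46.1, 105 and 109.5 CPM in TSDP tumours (log2 fold change -0.85 ± 0.33, SE, edgeR adjusted p = 0.365). Its Control values lay close together and TSDP 1 lay well under the other TSDP libraries. Fam162a (ENSMUSG00000003955), a HIF target of the mitochondrial death pathway, differed less, at 50.9, 48.1 and 52.0 CPM against 31.5, 41.1 and 44.0 CPM. Higd1a, a respiratory chain assembly factor, averaged 34.1 CPM ± 1.58 in Control against 27.0 CPM ± 5.31 in TSDP (SD, n = 3 each).

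Genes of growth restraint and stress had 3 of 4 members wholly below Control, against 8.76% of all genes. Ndrg1 (ENSMUSG00000005125), a hypoxia-induced regulator of growth and differentiation, was the most abundant member per kilobase of exon, with 151 CPM per kilobase in Control. Its counts were 1104, 884 and 994 CPM in Control tumours against 323, 476 and 719 CPM in TSDP tumours. The TSDP libraries spread over a wider range than the Control ones, and the mean in TSDP was 50.9% of that in Control. The log2 fold change was -0.97 ± 0.31 (SE) with an edgeR adjusted p of 0.334 and a DESeq2 adjusted p of 0.041. Ddit4 (ENSMUSG00000020108), which restrains mTORC1 under stress, stood at 58.6, 64.4 and 64.8 CPM in Control tumours against 35.7, 54.3 and 44.5 CPM in TSDP tumours. Ankrd37, a small ankyrin repeat protein, ran from 13.6 to 19.2 CPM in Control, and in TSDP from 4.09 to 12.5 CPM. Mxi1, an antagonist of MYC, overlapped narrowly, with TSDP 5 at 57.7 CPM above Control 4 at 55.8 CPM.

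Genes of collagen processing and secreted proteins were negative in 5 of 5, against 52.7% of all genes, with 2 wholly below Control, against 8.76% of all genes. P4ha2 (ENSMUSG00000018906), a collagen prolyl hydroxylase, stood at 50.1, 43.6 and 60.8 CPM in Control tumours against 26.7, 41.4 and 33.4 CPM in TSDP tumours, with TSDP 2 just below Control 4 (log2 fold change -0.61 ± 0.20, SE, edgeR adjusted p = 0.334). Its relative P4ha1 averaged 303 CPM ± 77.7 in Control against 211 CPM ± 66.1 in TSDP (SD, n = 3 each), with TSDP 5 inside the Control range. Adm (ENSMUSG00000030790), the vasodilator peptide adrenomedullin, varied widely within both groups: 76.2, 41.9 and 36.3 CPM in Control tumours against 6.24, 28.0 and 28.4 CPM in TSDP tumours. Leaving out TSDP 1 took its log2 fold change from -1.30 ± 0.59 (SE, edgeR adjusted p = 0.403) to -0.85 ± 0.35. Plod2, a lysyl hydroxylase, was highest of the 6 in TSDP 2 at 49.6 CPM and lowest in TSDP 1 at 22.6 CPM. Stc2, a secreted stanniocalcin, stayed at 4.15 CPM or less and overlapped. Beside these, 6 fibroblast markers, 3 of them collagens, summed to 2989 to 6129 CPM in Control and 4176 to 8003 CPM in TSDP.

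Among chromatin and transcription factors the histone demethylases held the smallest p of the 32 members. Kdm3a (ENSMUSG00000053470), which removes methyl groups from lysine 9 of histone H3, was counted at 174, 136 and 159.6 CPM in Control tumours against 89.7, 97.6 and 118 CPM in TSDP tumours. Kdm4b (ENSMUSG00000024201), a demethylase of the same lysine, stood at 41.8, 39.6 and 46.1 CPM in Control tumours against 24.2, 30.8 and 31.3 CPM in TSDP tumours. Relative to their mean, the 3 TSDP libraries lay closer together in these genes than in Car9 or Adm. Their log2 fold changes were -0.62 ± 0.15 and -0.56 ± 0.14 (SE, edgeR adjusted p = 0.326 for both), with DESeq2 adjusted p of 0.0367 and 0.0437. Without TSDP 1 they were -0.52 and -0.43. In the repressors Bhlhe40 and Bhlhe41, which also act on the circadian clock, TSDP 2 was the lowest library. For Bhlhe40 this was nearly a tie, at 254.0 CPM in TSDP 2, 255.0 CPM in Control 4 and 255.4 CPM in TSDP 1. Bhlhe41 stood at 55.8, 28.4 and 69.4 CPM in TSDP 1, 2 and 5, against 60.0 to 90.4 CPM in Control.

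The lipid genes stood in opposite directions. Vldlr, the receptor for very low density lipoprotein, was at 8.27, 8.05 and 6.77 CPM in Control tumours against 1.5, 6.98 and 2.69 CPM in TSDP tumours, where TSDP 2 lay inside the Control range. Insig2 (ENSMUSG00000003721), which holds back sterol synthesis at the endoplasmic reticulum and has a transcript abundant in liver, was at 115, 166 and 122 CPM in Control tumours against 201, 313 and 185 CPM in TSDP tumours. Its log2 fold change was 0.79 ± 0.25 (SE, edgeR adjusted p = 0.334), and 0.47 ± 0.29 with the hepatocyte marker score as a covariate. Insig2, Ak4, Epas1 and Vhl were the 4 members lowest in Control 3 and highest in TSDP 2, the libraries with the least and the most hepatocyte marker RNA. That order was shown by 17.9% of all genes, so 4 of 32 is no more than the background, and the part of liver tissue in the levels of these 4 genes was not tested.

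**Figure D3:**
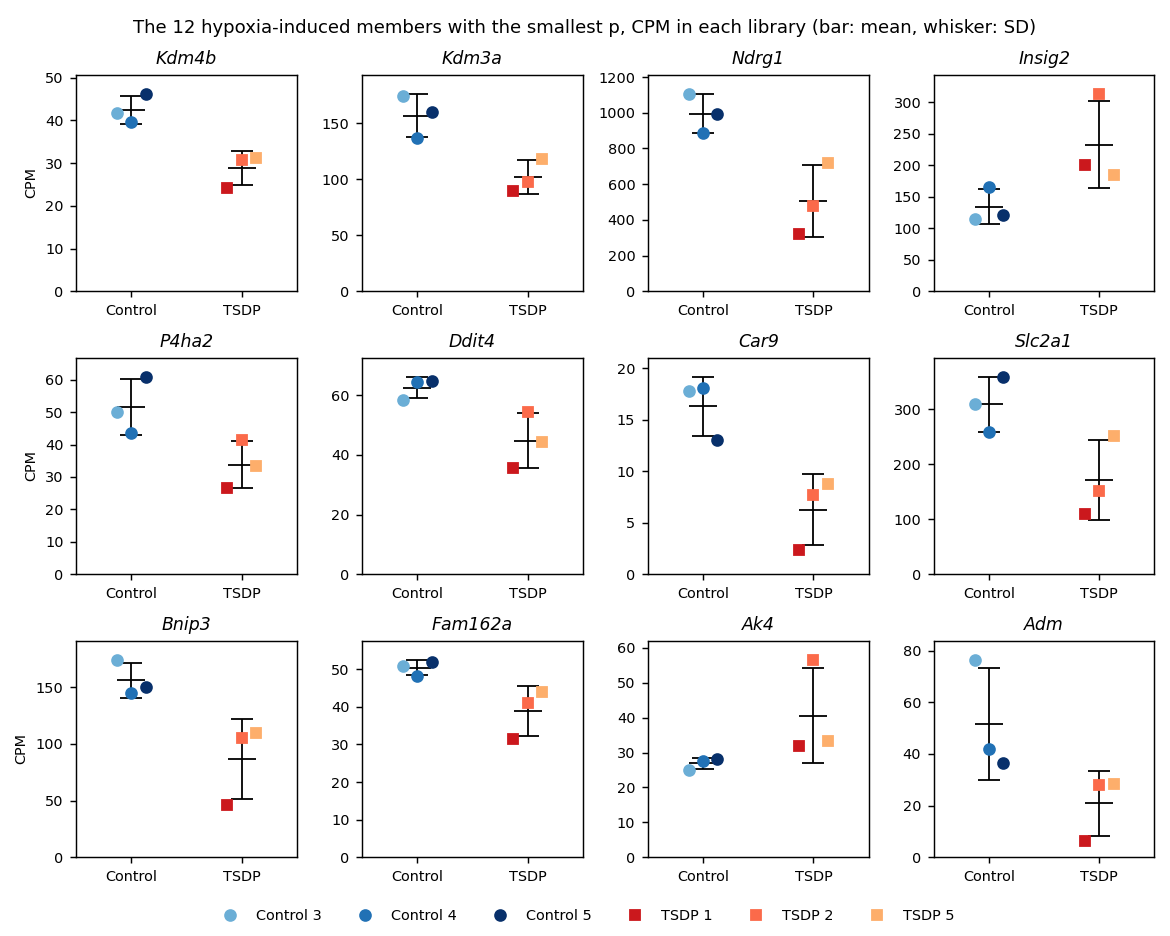
CPM (vertical axis, from 0) of the 12 hypoxia-induced members with the smallest edgeR p in each library, with the mean (bar) and SD (whisker) of each group. In 10 of the panels the 3 TSDP libraries lie below the 3 Control libraries, with TSDP 1 lowest in each of those 10. Insig2 and Ak4 lie above. Choosing panels by p favours groups that lie apart, and over all genes 8.76% lay wholly below and 13% wholly above Control.

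TSDP 1 set itself apart from the other libraries in these genes. It was the lowest of the 6 libraries in 19 of the 25 hypoxia-induced members (76%), against 11.3% of all genes tested. In 21 of the 25 it lay below every Control library, and its median level over the 25 was 57.1% of the Control mean. TSDP 2 and TSDP 5 each lay below every Control library in 17 of the 25, with medians of 80.5% and 75.5%. Over all genes the corresponding medians were 99.1% for TSDP 1, 99.3% for TSDP 2 and 99.3% for TSDP 5, and 26.2%, 34.9% and 21.9% of genes lay below every Control library. Both TSDP 2 and TSDP 5 were under the Control mean in 18 of the 25, against 33.1% of all genes.

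Markers of other cell types also differed between these tumours. TSDP 2 held the most hepatocyte marker RNA, 54550 CPM, and TSDP 5 the least of the 3, 18120 CPM, close to the 18510 CPM of Control 4. With the hepatocyte marker score as a covariate in edgeR, 22 of the 25 hypoxia-induced members had a negative log2 fold change and their median was -0.47. The summed markers ran from 93.7 to 18510 CPM in Control and from 18120 to 54550 CPM in TSDP. The score thus ran largely with the group, and with 6 libraries this fit can hardly separate it from the treatment. In that fit 2 members, Ddit4 and Kdm4b, were lower at an unadjusted p under 0.05 in place of 9. Hif1a alone was higher there, in place of 3 members without the covariate. Its log2 fold change was 0.38 ± 0.15 (SE, edgeR unadjusted p = 0.0397, adjusted p = 0.885). Over all genes the count at an unadjusted p under 0.05 in either direction fell, to 960 of 17423 in place of 2326. Summed tumour epithelium markers (6 genes) ran from 965.7 to 1382 CPM in Control, and in TSDP from 1187 to 1410 CPM. Of these, the keratin Krt8 was at 553 CPM ± 111 in Control against 554 CPM ± 55.1 in TSDP (SD, n = 3 each). Krt18, Epcam and Gpc3 overlapped as Krt8 did. Cdh1 and Afp lay wholly above Control, with means of 37.4 and 3.51 CPM in Control against 71.7 and 6.36 CPM in TSDP. Summed macrophage markers (7 genes) ran from 758 to 1349 CPM in Control, and in TSDP from 1070 to 1439 CPM, and summed T cell markers (6 genes) from 18.7 to 57.2 CPM and from 56.2 to 66.6 CPM. Summed neutrophil markers (6 genes) ran from 17.6 to 43.3 CPM and from 18.9 to 27.6 CPM, and erythroid ones (5 genes) reached 645 CPM in Control 3 alone, against at most 52.3 CPM in TSDP, with Hba-a2 at 0 in 4 of the 6 libraries. The part of these cell types in the member levels was not tested.

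**Figure D4:**
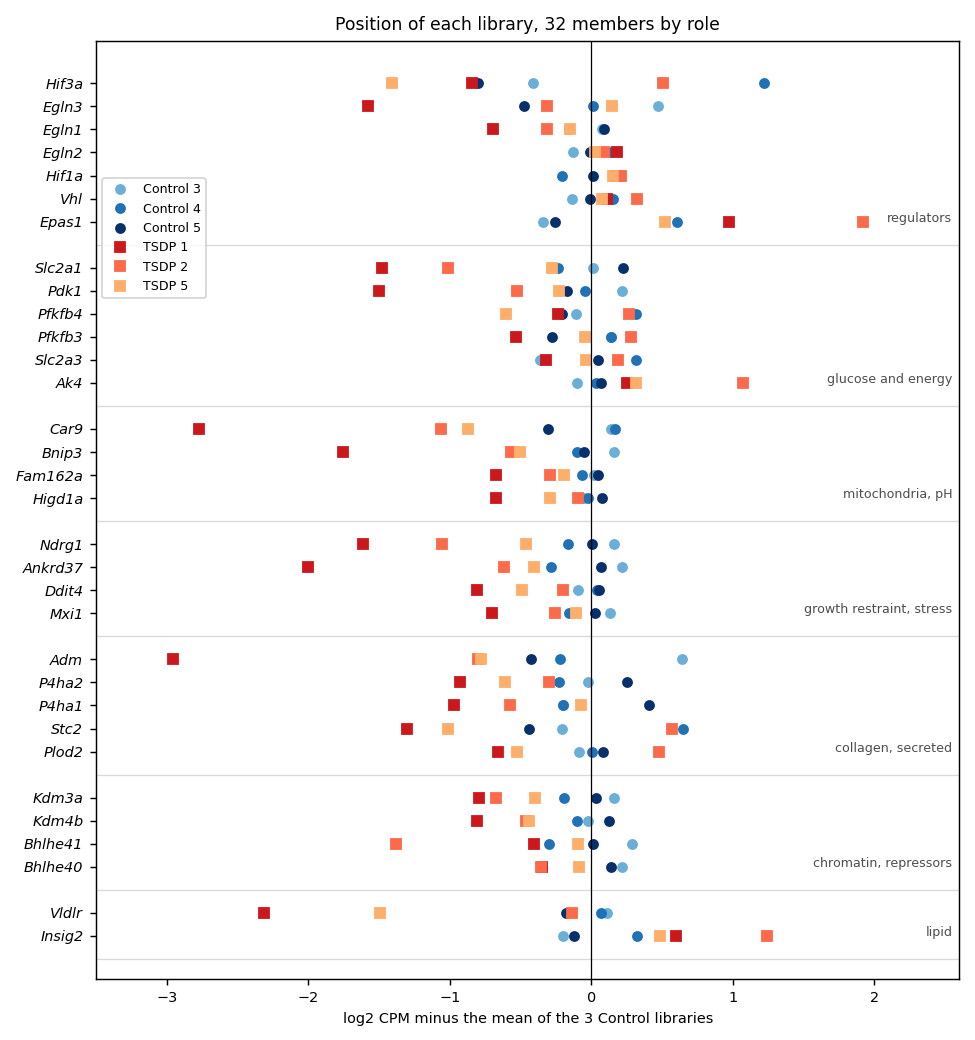
Position of each library for the 32 members: log2 CPM minus the mean of the 3 Control libraries (horizontal axis), circles for Control and squares for TSDP, rows grouped by role. TSDP 1 (red) is the leftmost point in 19 of the 25 hypoxia-induced rows, and no such shift is seen for Hif1a, Vhl or Egln2.

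**Figure D5:**
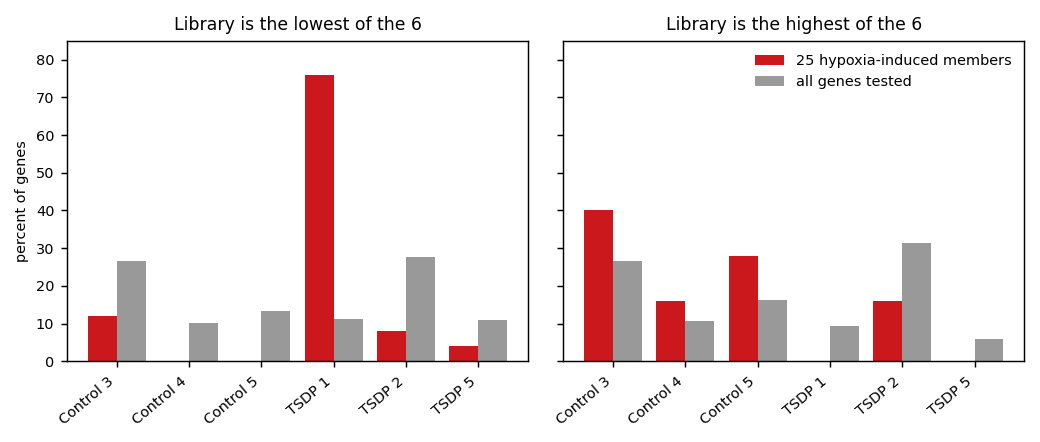
Percent of genes (vertical axis, from 0) in which each library is the lowest (left) or the highest (right) of the 6, for the 25 hypoxia-induced members (red) and all genes tested (grey). TSDP 1 is lowest in 76% of these members and in 11.3% of all genes. The highest library is a Control one in 21 of the 25. Over all genes Control 3, 4 and 5 are highest in 26.5%, 10.7% and 16.2%.

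Other genes of the pathway were read from lists outside the 32. Of 16 genes of the HIF machinery, 0 passed the edgeR test in either direction, as did 0% of all genes. There 7 were positive and 9 negative (56.2%), close to the 52.7% of all genes that were negative, with a median log2 fold change of -0.07. In 5 every TSDP library lay below every Control library and in 2, Elob and Siah2, above, against 8.76% and 13% of all genes. Arnt, the partner of the alpha subunits, averaged 92.2 CPM ± 4.47 in Control against 81.4 CPM ± 3.35 in TSDP, and Hif1an, the asparagine hydroxylase that blocks coactivator binding, 40.3 CPM ± 2.56 and 34.5 CPM ± 1.37 (SD, n = 3 each). Both were among the 5 genes wholly below Control, and the differences were small. The smallest p in this list belonged to Siah1a, a ligase that acts on the EGLN enzymes, and to the coactivators Ep300 and Crebbp. Their log2 fold changes were -0.45, -0.45 and -0.40 (edgeR adjusted p = 0.334 for each), with every TSDP library below every Control library. The VHL complex partners Elob, Eloc, Cul2 and Rbx1 ran from 0.01 to 0.18.

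Of 33 other hypoxia-induced genes, 32 could be tested and 0 passed the edgeR test in either direction. There 24 were negative and 8 positive, with a median of -0.31, or -0.19 without TSDP 1, and 9 lay wholly below Control and 1 above, against 8.76% and 13% of all genes. The untested gene was Epo, the classic HIF-2 target, with 12 reads or fewer in each library. Ero1l, an oxidase that forms disulfide bonds in secreted proteins, was counted at 308, 199.5 and 302 CPM in Control tumours against 85.8, 134 and 172 CPM in TSDP tumours (log2 fold change -1.05 ± 0.30, SE, edgeR adjusted p = 0.326, DESeq2 adjusted p = 0.025). TSDP 1 was lowest and TSDP 5 nearest to Control. Ccng2, an atypical cyclin, averaged 85.3 CPM ± 9.11 and 65.2 CPM ± 6.38 (SD, n = 3 each). Vegfa, the vessel growth factor, overlapped by 1 library, at 343, 285 and 450.1 CPM in Control tumours against 209, 262 and 289 CPM in TSDP tumours. Ppp1r3c, a glycogen-targeting subunit that liver also expresses, was the 1 gene of this list wholly above Control. It stood at 0.430, 5.0 and 1.66 CPM in Control tumours, with 14 reads in Control 3, against 11.0, 18.6 and 7.58 CPM in TSDP tumours. Its log2 fold change was 2.39 ± 0.83 (SE, edgeR adjusted p = 0.3425, DESeq2 adjusted p = 0.0228), and it ran from 0.89 to 3.55 over the alternative fits. Like the hepatocyte markers it was lowest in Control 3 and highest in TSDP 2, and their part in it was not tested.

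Per kilobase of exon the members spanned a wide range of levels. In Control, Ndrg1 (151 ± 16.7 CPM per kilobase, SD, n = 3) was followed by Slc2a1 (88.2 ± 14.1), P4ha1 (73.6 ± 18.9), Bhlhe40 (70.2 ± 14.0) and Bnip3 (68.9 ± 6.82). Ndrg1 stood above Slc2a1 by more than these spreads, while Slc2a1 and P4ha1, P4ha1 and Bhlhe40, and Bhlhe40 and Bnip3 did not differ beyond them. Egln1, Hif1a and Egln3 lay together at 26.1 ± 2.46, 26.0 ± 3.66 and 24.5 ± 7.89. At the low end stood Vldlr at 0.765 ± 0.0801, Stc2 at 0.538 ± 0.231 and Hif3a at 0.0721 ± 0.0639.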

How the data were processed

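RNA from the 6 tumours was purified on RNeasy columns, and libraries were made with the KAPA mRNA HyperPrep kit (labels' protocols). The submitters' processing notes name Trimmomatic 0.38, HISAT2 2.1.0 as well as featureCounts 2.0.0. Build, annotation and strandedness are not given here, so a gene's reads may include those of an antisense or overlapping neighbour. The deposited table holds raw counts. The authors' normalized signal, in another deposited table, is each count over a factor fixed within a library (relative departure at most 5.2e-15); only its gene symbols were used. Where a symbol had several IDs, that with the highest counts was kept. For Pgm1, in the list of other hypoxia-induced genes, the deposited symbol belongs to ENSMUSG00000029171. A gene-name reference gives Pgm1 another ID, so this entry may be a different gene from the one intended.

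Groups and replicate numbers came from the titles, and 0 columns belonged to other samples. No library pair agreed within counting noise (smallest chi-square 46.5 per gene). The test was that of edgeR 4.0.16 in R 4.3.3: filterByExpr at a minimum count of 10, TMM, glmQLFit and glmQLFTest on the group, adjusted over 17423 genes. The biological coefficient of variation was 34.9%. DESeq2 1.42.0 and limma 3.58.1 were alternatives, with other scalings and filters, bias-adjusted deviances, a hepatocyte marker score as covariate, and leaving out each library. The steps were tested on simulated counts. Levels per kilobase use exon lengths of GENCODE M21.

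The members and lists were chosen with earlier results of these data known. Named with values in every library are the 7 regulators and the 12 hypoxia-induced members with the smallest p; of each other list the 3 genes with the smallest p, with Arnt, Hif1an and Vegfa. Other members named were chosen after their values were seen.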

Additional observations from a re-analysis of the deposited data

How the results depend on the processing

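Over 15 alternatives, 18 of the 25 hypoxia-induced members had a negative log2 fold change in each and 2 (Ak4 and Insig2) a positive one in each; 5 (Bhlhe40, Pfkfb3, Pfkfb4, Plod2 and Slc2a3) changed sign in at least 1. The median of the 25 ran from -0.61 to -0.32, the smallest size being that without TSDP 1. DESeq2 called 620 genes, among them 3 members and 2 of the other hypoxia-induced genes, and edgeR without a filter 1 gene, no member; edgeR and limma-voom under the other alternatives called 0 genes. With upper-quartile factors 16 members lay wholly below and 2 above Control, beside 13.8% and 9.9% of all genes in place of 8.76% and 13%. The median of the HIF machinery list was -0.14 with upper-quartile factors, -0.13 with library totals and -0.015 with the hepatocyte marker score as covariate, and -0.18 to -0.012 with 1 library left out. Members wholly above Control numbered 2 to 5 with 1 library left out, 5 being the count without Control 4, where 22.9% of all genes did. Egln2 turned to -0.038 with the covariate and Hif3a to 0.30 without Control 4, within a range of -1.64 to 0.30 with 1 library left out. The cause was not tested. No paired analysis was run, since the labels give no pairing between Control and TSDP tumours. The groups share only 1 replicate number, and nothing in the labels makes that number a pair. Hif3a, at 4 to 32 reads per library, is limited by depth.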
